A study of Mus musculus with 4 samples.

Results

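The genes followed here handle iron in the cell, and were measured in the hearts of mouse embryos at E18.5: *Tfrc*, *Slc11a2* and *Slc25a37* (import), *Fth1*, *Ftl1* and *Ncoa4* (storage), *Slc40a1* (export), *Aco1* and *Ireb2* (sensing) and *Hmox1* (heme breakdown). They were chosen as named genes of these roles, and all 10 are among the 14936 genes of the deposited table and passed the filter on low values. Polyadenylated RNA of hearts was sequenced, with a kit that keeps the strand, from 4 embryos on a C57BL/6 background, all homozygous for a floxed *Adar1* allele. The 2 controls, embryos 47 and 50, carried Nkx2.5-Cre (WT/WT) and so no Cre, and the 2 mutants, embryos 51 and 54, carried Nkx2.5-Cre (Cre/WT). *Adar1* encodes an RNA editing enzyme, and Nkx2.5-Cre places the Cre recombinase under a gene of the early heart, so that cells of other origin in the heart may keep the floxed allele. Cre is present in the mutants alone, and an effect of Cre itself cannot be told apart from that of the recombined allele. The libraries hold between 7457103 and 8998872 reads of the listed genes. Values are the deposited CPM, read counts scaled to an effective library size, in which a single read is worth between 0.109 and 0.138 CPM.

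Cells take up iron mainly by binding transferrin to the transferrin receptor, which is carried into endosomes where the iron is released and reduced. Iron that is not used at once for heme and iron-sulfur clusters, the cofactors of respiration, is stored in ferritin, a shell of heavy and light chains, and excess iron leaves through ferroportin. Iron regulatory proteins bind a hairpin in certain mRNAs, the iron-responsive element (IRE), when iron is scarce. A hairpin in the 5' untranslated region then blocks translation, and hairpins in the 3' untranslated region of the transferrin receptor mRNA protect it from decay. A working heart depends on this supply because its contraction is powered by respiration.

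The hairpins are shown because these mRNAs share them, in the 3' untranslated region for *Tfrc* and in the 5' region for ferritin and ferroportin. The loop CAGTGN, where N was not G, was searched on the sense strand of untranslated regions of GENCODE M21 transcripts, with an unpaired C placed 5 bases before the loop and all 5 stem pairs between them and the bases after the loop complementary, G with T allowed. It was found in 123 of 21877 protein-coding genes, 0.562%, and in 4 of the 10 iron genes. Each site is printed with 6 bases on either side of that hairpin core, the loop in capitals, as DNA letters of the transcript strand on GRCm38. The 4 sites of *Tfrc* lie in the 3' untranslated region on the plus strand, at chr16:32631219-32631247, chr16:32631598-32631626, chr16:32631663-32631691 and chr16:32631710-32631738.
Tfrc site 1: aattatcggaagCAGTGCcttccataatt
Tfrc site 2: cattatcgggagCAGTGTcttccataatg
Tfrc site 3: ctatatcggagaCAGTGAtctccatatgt
Tfrc site 4: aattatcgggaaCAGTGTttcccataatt
The sites of *Fth1* (chr19:9982732-9982760, plus strand), *Ftl1* (chr7:45459779-45459807, minus strand) and *Slc40a1* (chr1:45925465-45925493, minus strand) lie in 5' untranslated regions. Each sequence is printed once per gene, for *Fth1* from a longer alternative transcript, and other *Fth1* transcripts may hold it too.
Fth1: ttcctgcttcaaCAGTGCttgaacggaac
Ftl1: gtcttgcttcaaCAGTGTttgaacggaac
Slc40a1: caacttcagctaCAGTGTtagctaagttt
A match is a description of the letters and not a measured binding site.

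Of the 10 iron genes, *Tfrc*, *Fth1* and *Slc40a1* fell in the mutants, *Hmox1* rose, and 6 did not pass the test. The test was limma on log2(CPM + 1), with Benjamini-Hochberg adjustment over all 14869 genes tested and a threshold of 0.05. It called 31.9% of all genes tested, 17.8% up and 14.2% down, so a count of 4 in 10 is near the background share. The calls over all genes, 2643 up and 2107 down, split into 2253 up and 2963 down under upper-quartile scaling, or 2188 up and 2738 down after quantile normalization. Of the 10, DESeq2 called 3 (24.7% of all genes), the fits without mutant 51 and without mutant 54 called 4 and 3 (26.9% and 38.0%), and those without control 47 and without control 50 called 1 each (3.84% and 4.50%). The median log2 change of the 10 was -0.17, against -0.01 for all genes tested. Both mutants lay beyond both controls for 6 of the 10, against 72.2% of all genes tested. With 2 libraries a group, the smallest two-sided p of an exact permutation test is 0.33, so the p-values come from limma, which draws each gene's variance toward that of the others.

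**Figure D1:**
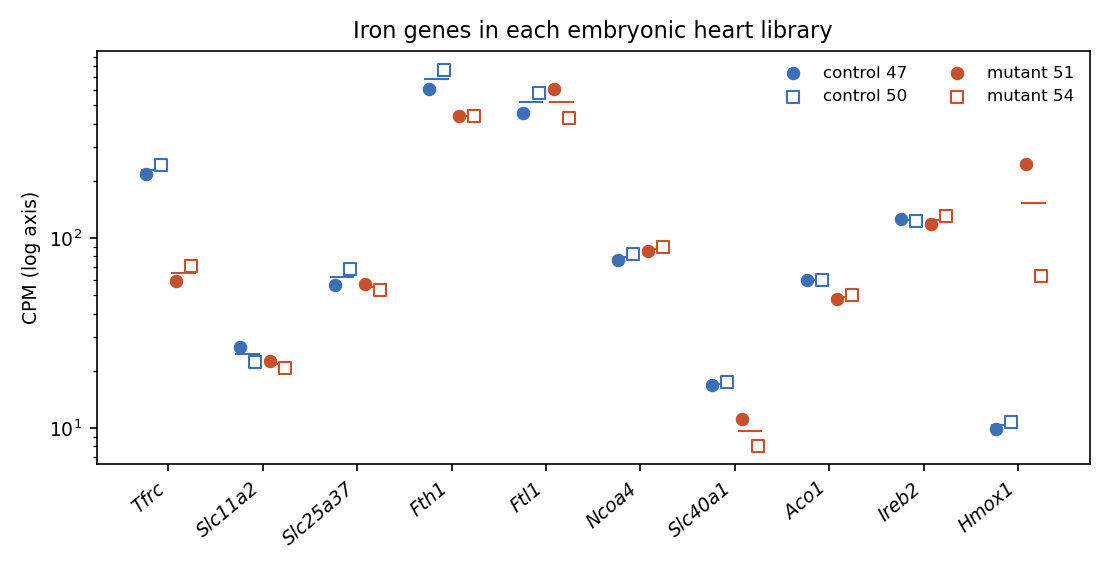
CPM (log axis) of the 10 iron genes in each library, controls in blue and mutants in red, with a bar at each group's mean of 2. *Tfrc* lies between 216 and 241 CPM in the controls and between 59.5 and 71.0 in the mutants, and *Hmox1* is spread from 63.0 to 244 CPM in the mutants.

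Several measures of the whole libraries are given here beside the iron genes. *Adar*, the floxed gene, had a mean of 33.0 ± 3.85 CPM in controls against 204 ± 13.0 CPM in mutants (SD, n = 2 each), which goes against a loss of its reads in the libraries labelled mutant. Which exons are floxed is not in the labels, so gene-level reads do not check the deletion. *Nkx2-5*, the gene named in the Cre driver, had a mean of 147 ± 5.39 CPM in controls against 81.0 ± 16.7 CPM in mutants. Its log2 change was -0.86 (SE 0.16, adjusted p = 0.00802), and it is also among the cardiomyocyte markers counted below. The median log2 change of 10 interferon-stimulated genes was 7.29, and each of them rose. Of 10 cardiomyocyte markers 3 fell and none rose, where 14.2% of all genes tested fell, and their summed level was 52403 and 40747 CPM in the controls, against 21163 and 32872 CPM in the mutants, with none at 0. Of 7 fibroblast markers 2 fell, none of 8 endothelial markers passed, and both lung and airway markers in the table, *Foxj1* and *Sftpb*, fell, *Foxj1* being at 0 in mutant 54. In bulk tissue, fewer cells of a type and less RNA per cell cannot be told apart.

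*Tfrc*, which encodes the transferrin receptor (chromosome 16, 32608920 to 32632794), stood at 216 CPM in control 47, 241 CPM in control 50, 59.5 CPM in mutant 51 and 71.0 CPM in mutant 54. Both mutants were far below both controls, and the replicates of each group lay close together. The mean fell from 229 ± 17.6 to 65.3 ± 8.11 CPM (SD, n = 2 each), 3.51-fold lower. The log2 change was -1.80 (SE 0.13, adjusted p = 0.000176), which placed *Tfrc* at rank 71 from the lowest of all genes tested. It was the only iron gene past the threshold under each of the 14 alternatives, with log2 fold changes from -1.92 to -1.67 when single libraries were left out and adjusted p-values from 3.09e-19 to 0.0187 over the 14. The authors' deposited table gives it an FDR of 0.000299.

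Red cell precursors carry much transferrin receptor, and hemoglobin reads were also lower in both mutants than in either control. The 4 adult hemoglobin genes summed to 5543 CPM in control 47, 12772 CPM in control 50, 658 CPM in mutant 51 and 4983 CPM in mutant 54. Hemoglobin was highest in control 50 and lowest in mutant 51, and close in control 47 and mutant 54. The part of red cell RNA in the *Tfrc* values was not tested. Of 15 erythroid markers 11 were in the table and 10 were tested, with a median log2 change of -1.60. None of the 10 fell past the threshold and 1 rose, against 14.2% down and 17.8% up of all genes tested. Both mutants lay below both controls for 8 of the 10, against 36.3% of all genes tested. *Alas2*, the erythroid first enzyme of heme synthesis, which carries an IRE, was at 166 and 377 CPM in the controls, against 14.4 and 153 CPM in the mutants (adjusted p = 0.0941, log2 fold change -2.37, SE 0.94).

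**Figure D2:**
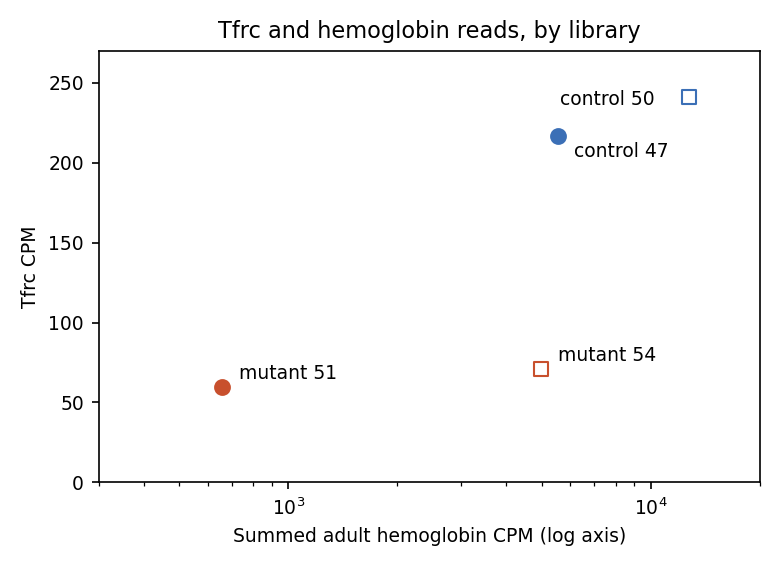
*Tfrc* CPM against the summed CPM of 4 adult hemoglobin genes (log axis), 1 point per library. Control 47 and mutant 54 have 5543 and 4983 CPM of hemoglobin and 216 and 71.0 CPM of *Tfrc*.

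The other import genes did not pass the test. *Slc11a2*, which encodes the divalent metal transporter DMT1 that moves iron out of endosomes (chromosome 15, 100387898 to 100425072), was at 26.8 and 22.1 CPM in the controls, against 22.5 and 20.8 CPM in the mutants. The groups overlapped, and the log2 change was -0.16 with a 95% interval from -0.54 to 0.22 (adjusted p = 0.459). *Slc25a37*, which encodes mitoferrin-1, the iron carrier of the inner mitochondrial membrane best known from red cell precursors (chromosome 14, 69241848 to 69285112), was at 56.6 and 68.5 CPM in the controls, against 57.1 and 52.9 CPM in the mutants. These groups overlapped too, with a log2 change of -0.18 and an interval from -0.50 to 0.15 (adjusted p = 0.351). Gene-level reads do not separate the *Slc11a2* transcript forms with and without an IRE, and both genes share exon sequence with annotated genes on the opposite strand.

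Ferritin heavy chain RNA passed the test and light chain RNA did not, and the difference between them was not tested. *Fth1*, the heavy chain with the site that oxidises iron (chromosome 19, 9980598 to 9985098), was at 607 and 769 CPM in controls 47 and 50 and at 437 and 439 CPM in mutants 51 and 54. Both mutants were lower than both controls, and the mutants were almost equal. The mean fell from 688 ± 114 to 438 ± 0.756 CPM (SD, n = 2 each), 36.4% lower, with a log2 change of -0.64 (SE 0.17, adjusted p = 0.0278). The call was lost without control 47 (adjusted p = 0.121) and without control 50 (adjusted p = 0.233), at log2 fold changes of -0.81 and -0.47.

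*Ftl1*, the light chain, which helps iron settle in the core (chromosome 7, 45457944 to 45459884), was at 457 and 578 CPM in the controls, against 608 and 428 CPM in the mutants. The mutants lay on either side of the controls, and the log2 change was -0.01 with an interval from -0.51 to 0.49 (adjusted p = 0.977). The CPM ratio of *Fth1* to *Ftl1* was 1.33 in both controls, 0.719 in mutant 51 and 1.02 in mutant 54, lower in both mutants. Gm10252, annotated on the opposite strand across the start of *Ftl1*, had between 0.832 and 0.870 times the CPM of *Ftl1* in all 4 libraries. The count's own strand setting is not given in the sources used here, so reads of the pair cannot be told apart, and ferritin genes also have near-identical copies in the genome whose reads may be split. *Ncoa4*, the receptor that delivers ferritin to lysosomes for iron release (chromosome 14, 32159865 to 32179855), was at 76.9 and 82.1 CPM in the controls, against 85.3 and 89.2 CPM in the mutants. Both mutants were slightly above both controls, but the log2 change of 0.13 (interval -0.13 to 0.40) did not pass (adjusted p = 0.394).

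*Slc40a1* encodes ferroportin, the one known iron exporter of mammalian cells (chromosome 1, 45908068 to 45926523). It was at 16.8 and 17.4 CPM in the controls, 11.2 CPM in mutant 51 and 8.07 CPM in mutant 54. Both mutants were below both controls, which were close together. The mean fell from 17.1 ± 0.455 to 9.64 ± 2.22 CPM (SD, n = 2 each), with a log2 change of -0.78 (SE 0.21, adjusted p = 0.0277), on 146 and 126 reads in the controls against 103 and 68 in the mutants. The call was lost with DESeq2 on recovered reads (adjusted p = 0.0560), without mutant 54 (0.0630), without control 47 (0.171) and without control 50 (0.179). Iron-recycling macrophages express much ferroportin and heme oxygenase. Of 15 macrophage markers 12 were in the table. Of the 11 tested, 5 rose (*C1qa*, *C1qb*, *C1qc*, *Cd68* and *Fcgr1*) and *Mrc1* fell, against 17.8% up and 14.2% down of all genes tested. The summed level of the 12 was 188 and 150 CPM in the controls, against 233 and 183 CPM in the mutants. *Cd163*, a hemoglobin scavenger receptor, did not pass the filter on low values and was not tested. It was at 3.91 and 0.968 CPM in the controls and at 0 and 0.475 CPM in mutants 51 and 54. The part of macrophages in the *Slc40a1* and *Hmox1* values was not tested.

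The iron regulatory proteins did not pass the test. *Aco1*, whose product IRP1 is an aconitase when it holds an iron-sulfur cluster and binds IREs when it does not (chromosome 4, 40143081 to 40198338), was at 60.3 CPM in both controls, against 47.4 and 49.9 CPM in the mutants. Both mutants were below both controls, and the log2 change was -0.30 (SE 0.12, adjusted p = 0.0826). With upper-quartile scaling it was -0.40 (adjusted p = 0.0348) and with quantile normalization -0.40 (adjusted p = 0.0368), both past the threshold. *Ireb2*, whose product IRP2 is degraded when iron is plentiful (chromosome 9, 54863789 to 54912530), was at 126 and 122 CPM in the controls, against 119 and 130 CPM in the mutants. The mutants lay on either side of the controls, with a log2 change of 0.00 (0.0050) and an interval from -0.26 to 0.27 (adjusted p = 0.977). *Fbxl5*, the iron-sensing subunit that marks IRP2 for degradation, had a log2 change of -0.02 (SE 0.12, adjusted p = 0.892).

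*Hmox1* encodes heme oxygenase-1, which opens the heme ring and frees its iron (chromosome 8, 75093621 to 75100589). It was at 9.89 CPM in control 47, 10.8 CPM in control 50, 244 CPM in mutant 51 and 63.0 CPM in mutant 54. Both mutants were above both controls, but mutant 51 was far above mutant 54. The mean rose from 10.3 ± 0.638 to 153 ± 128 CPM (SD, n = 2 each), 14.8-fold, with a log2 change of 3.47 (SE 0.53, adjusted p = 0.00429). The log2 gap between the mutants was 1.94, and 0.289% of all genes tested had a larger one. The log2 change ranged from 2.499 without mutant 51 to 4.43 without mutant 54. The call was lost without control 47 (adjusted p = 0.0939) and without control 50 (adjusted p = 0.0829), when the spread comes from the mutants alone. *Hmox2*, the constitutive heme oxygenase, had a log2 change of -0.28 (SE 0.13, adjusted p = 0.128), and *Blvra*, which reduces the biliverdin that heme oxygenase makes, fell by 0.88 (SE 0.17, adjusted p = 0.0105) with both mutants below both controls.

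**Figure D3:**
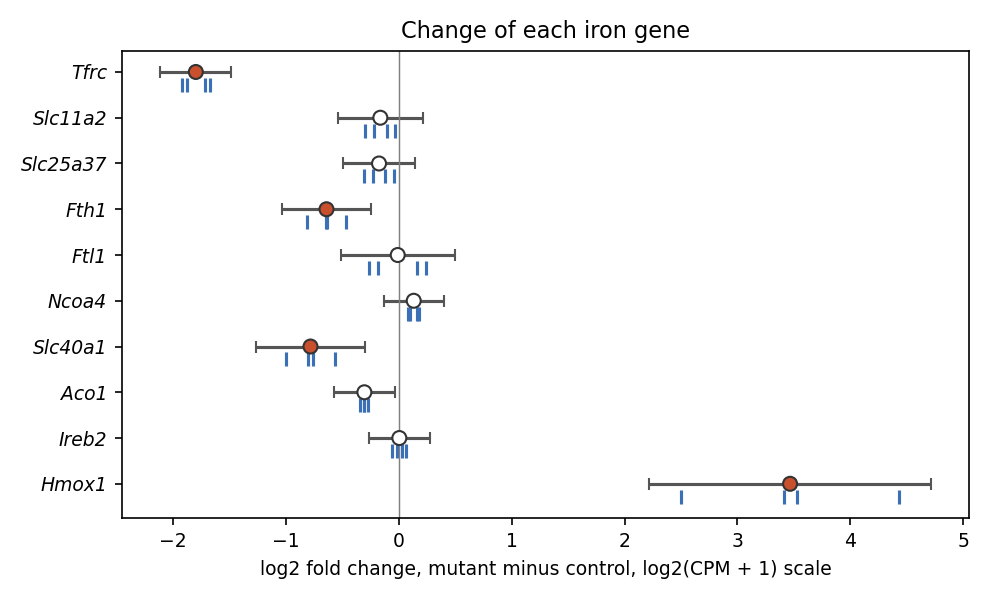
Log2 fold change of each iron gene, as mutant less control of log2(CPM + 1), with its 95% limma interval. Filled points passed the threshold, and blue ticks are the values with each single library left out, which reach from 2.499 to 4.43 for *Hmox1*.

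Per length, the order of the iron genes differed between the groups. On the scale of CPM per kilobase of the transcript numbered 201, *Fth1* led in the controls at 654 and 828, followed by *Ftl1* at 472 and 598. *Tfrc* came next at 44.3 and 49.3, and *Ncoa4*, *Ireb2*, *Aco1*, *Slc25a37*, *Slc11a2*, *Hmox1* and *Slc40a1* lay between 4.98 and 24.6. The ranges of *Aco1* and *Slc25a37* overlapped in the controls. In mutant 51 *Ftl1*, at 629, was above *Fth1*, at 471, whereas in mutant 54 *Fth1*, at 472, was above *Ftl1*, at 443. In the mutants *Hmox1* stood behind the ferritins at 155 and 40.2, and *Tfrc*, at 12.2 and 14.5, lay below *Ncoa4* and *Ireb2* in both. Over all annotated exons, which for *Fth1* include long alternative forms, *Ftl1* at 341 and 432 CPM per kilobase was above *Fth1* at 175 and 222 in the controls. The order of the ferritins in the controls thus depends on the length used.

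Among 10 transcripts listed as carrying an IRE, 4 fell and *Cdc42bpa*, a kinase of the cytoskeleton, rose. Transcripts with the hairpin in the 5' untranslated region (*Fth1*, *Slc40a1*) and in the 3' region (*Tfrc*) were both among those that fell. *Epas1*, an oxygen-regulated transcription factor, had a log2 change of -0.50 (SE 0.23, adjusted p = 0.132). Of the 100 tested genes whose untranslated regions held the hairpin letters, 14 rose and 21 fell, against 17.8% and 14.2% of all genes tested, with a median log2 change of 0.00 (0.0041).

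Of 41 further iron genes 33 were in the table and 32 were tested, of which 8 rose and 6 fell, with a median log2 change of -0.02. These counts are near the shares of all genes tested, 17.8% up and 14.2% down. *Steap3*, the endosomal reductase that works beside the transferrin receptor, fell from 25.0 ± 2.25 to 8.83 ± 0.902 CPM (SD, n = 2 each), a log2 change of -1.40 (SE 0.18, adjusted p = 0.00203). *Steap1* and *Steap2*, of the same family, rose, and *Steap4* fell. *Steap1* rested on 6 and 2 reads in the controls, against 129 and 31 in the mutants, a ratio of 18.1 with an exact counting interval from 8.96 to 42.6. It was at 14.0 CPM in mutant 51 but 3.68 CPM in mutant 54, and its log2 change was 1.67 without mutant 51 and 3.36 without mutant 54. Of the zinc and iron importers, *Slc39a14* (ZIP14) rose by 0.78 (SE 0.14, adjusted p = 0.00682), whereas *Slc39a8* (ZIP8) fell by 0.82 (SE 0.26, adjusted p = 0.0469). Without mutant 51 the calls of *Slc39a8* (log2 change -0.42, adjusted p = 0.0891), *Steap2* (0.68, adjusted p = 0.0748) and *Steap4* (-0.68, adjusted p = 0.0865) were lost.

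*Cp*, the ceruloplasmin ferroxidase that oxidises iron leaving through ferroportin, rose from 12.2 ± 2.56 to 42.6 ± 5.73 CPM (SD, n = 2 each), a log2 change of 1.74 (SE 0.19, adjusted p = 0.00114). Of 8 liver markers, a tissue that makes much ceruloplasmin, only *Ahsg* was in the table, and it did not pass. *Slc25a28*, mitoferrin-2, the carrier of non-erythroid cells, was at 15.7 and 16.04 CPM in the controls, against 32.1 and 32.5 CPM in the mutants. The replicates nearly coincided, and the log2 change was 0.98 (SE 0.14, adjusted p = 0.00356), while its relative *Slc25a37* did not pass; the difference between them was not tested. *Hfe*, a partner of transferrin receptors in iron sensing, *Sfxn1*, a mitochondrial serine carrier, and *Hif1a*, an oxygen-regulated factor, rose by between 0.54 and 0.84; without mutant 51 the calls of *Hfe* (adjusted p = 0.0551) and *Hif1a* (0.0712) were lost. *Slc22a17*, a lipocalin receptor, fell by 1.05 (SE 0.17, adjusted p = 0.00485), and *Slc48a1*, a heme transporter, fell by 0.78 (SE 0.14, adjusted p = 0.00705).

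Of 36 genes of heme and iron-sulfur cluster synthesis 35 were tested, of which 12 fell and 2 rose, with a median log2 change of -0.41, against 14.2% down and 17.8% up of all genes tested. *Nfs1*, the desulfurase that supplies sulfur to the clusters, fell from 43.3 ± 3.76 to 18.2 ± 1.84 CPM (SD, n = 2 each), a log2 change of -1.21 (SE 0.15, adjusted p = 0.00192). *Iscu*, the scaffold on which clusters are built, fell by 0.72 (SE 0.12), and *Isca1* and *Bola3*, which help in later steps, fell by 0.90 (SE 0.12) and by 0.94 (SE 0.12). Of the heme enzymes, *Urod* fell by 1.19 (SE 0.15), and *Fech*, the ferrochelatase that inserts iron, fell by 1.15 (SE 0.22). *Hspa9*, a mitochondrial chaperone, rose by 1.11 (SE 0.22), and *Nfu1*, which hands on finished clusters, rose by 0.66 (SE 0.13). Mitochondrially encoded reads also moved with the groups, at 6.14% and 6.93% of reads in controls 47 and 50, against 2.08% in mutant 51 and 4.31% in mutant 54, and their part in these values was not tested.

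**Figure D4:**
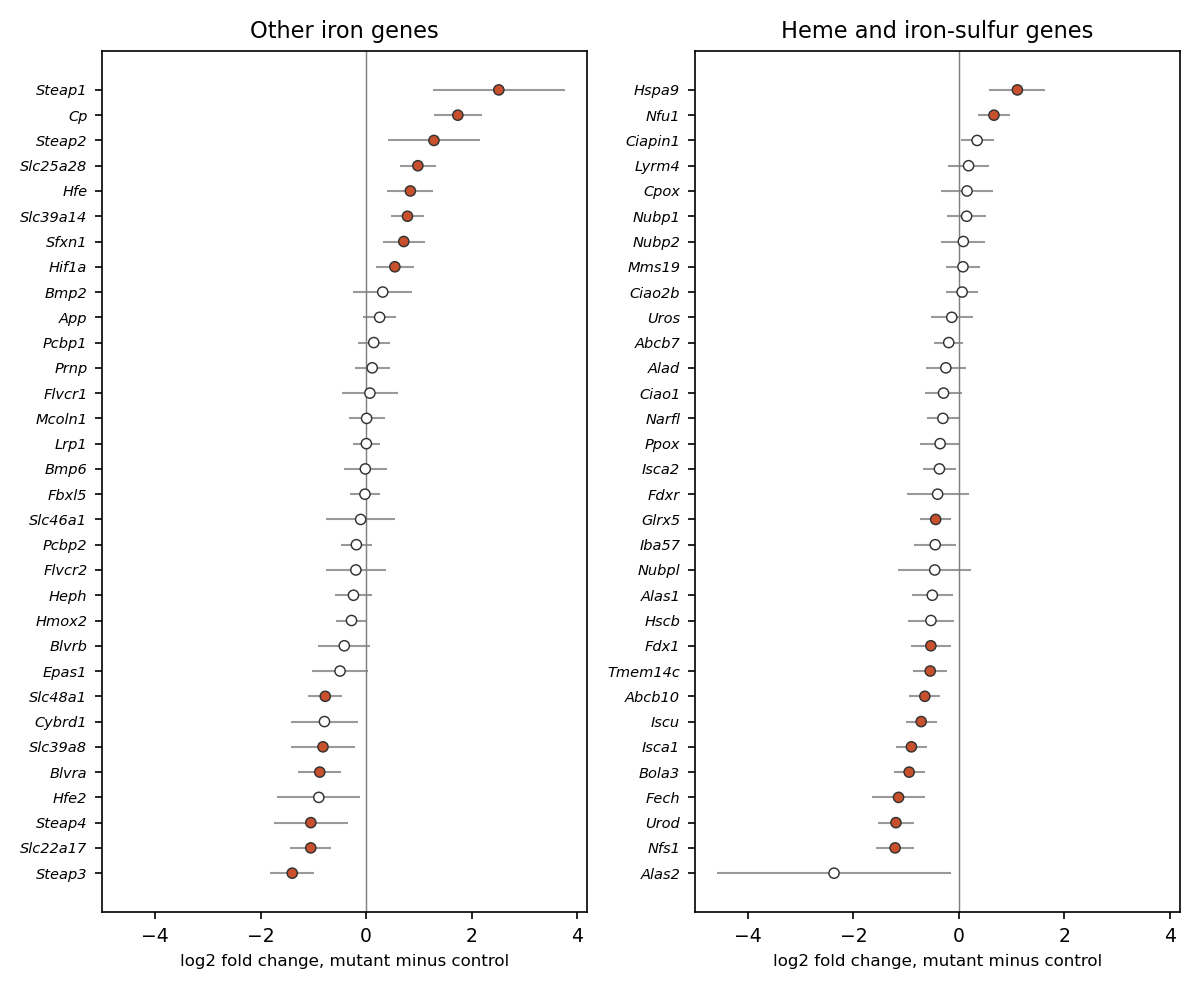
Log2 fold changes, as mutant less control of log2(CPM + 1), of the 32 further iron genes tested (left) and 32 of the 35 genes of heme and iron-sulfur synthesis tested (right), with 95% limma intervals; filled points passed the threshold. *Steap1*, *Cp*, *Steap2* and *Slc25a28* lead the left panel, and *Alas2*, at -2.37, has the widest interval of the right panel.

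Without either control most calls in these lists were lost, as were most calls over all genes. The spread then comes from the mutants alone, and why the calls were lost was not tested. Of the further iron genes *Cp* was past the threshold without control 47, and *Cp* and *Steap3* without control 50. Of the heme and iron-sulfur genes none was past it without control 47 and *Nfs1* without control 50. Without mutant 51, the log2 changes of *Cp*, *Steap3* and *Nfs1* were 1.60, -1.50 and -1.11.

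*Hmox1* is a known target of NRF2, encoded by *Nfe2l2*, a transcription factor of the response to oxidants, and is repressed by the heme sensor BACH1. Of 20 listed NRF2 targets 19 were tested, of which *Slc7a11* and *Gclc* rose and 7 fell, against 17.8% up and 14.2% down of all genes tested, with a median log2 change of -0.06. *Slc7a11*, a cystine importer that is also a target of the stress factor ATF4, rested on 1 and 2 reads in the controls, against 820 and 428 in the mutants, a ratio of 376 with an exact counting interval from 128 to 1827. *Gclc*, the catalytic subunit of glutathione synthesis, rose by 0.90 (SE 0.18, adjusted p = 0.0121). *Prdx1*, *Gstm1* and *Cat*, which remove peroxides or conjugate glutathione, fell by 0.88, 0.86 and 0.68, and *Nqo1*, a quinone reductase, fell by 0.77 (SE 0.22, adjusted p = 0.0376), a call lost without mutant 51 (adjusted p = 0.0929). *Gsta4*, *Mgst1* and *Taldo1* were the other falls.

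Like *Hmox1*, most of these targets were higher in mutant 51 than in mutant 54. This held for 14 of 19, with a median log2 gap of 0.51, against 47.5% of all genes tested and a median gap of -0.02. *Srxn1*, which repairs peroxiredoxins, was at 5.52 and 5.39 CPM in the controls, 27.6 CPM in mutant 51 and 5.46 CPM in mutant 54. *Sqstm1*, an autophagy receptor, was at 191 and 198 CPM in the controls, 479 CPM in mutant 51 and 253 CPM in mutant 54. Mutant 51 was thus the highest library for both, as for *Hmox1*. In mutant 54, *Srxn1* lay between the controls, whereas *Sqstm1* and *Hmox1* were above both controls. *Hmox1* was at 63.0 CPM there, against 9.89 and 10.8 CPM in the controls. Without mutant 54, 9 of the targets rose and 8 fell, in a fit that called 38.0% of all genes tested. Without mutant 51, 3 rose and 7 fell, in a fit that called 26.9%.

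Of 7 regulators of these genes 5 rose and none fell, against 17.8% up and 14.2% down of all genes tested. *Mafk*, which encodes a small MAF protein that pairs with NRF2 or BACH1 on DNA, was at 25.2 and 25.3 CPM in the controls, against 106 and 123 CPM in the mutants, with a log2 change of 2.13 (SE 0.13, adjusted p = 5.86e-05). Unlike *Hmox1*, its mutants were close together. *Maff* and *Mafg*, of the same family, rose by 1.10 (SE 0.14) and by 0.90 (SE 0.17), and *Nfe2l1* rose by 0.98 (SE 0.20). *Nfe2l2* rose by 0.60 (SE 0.19, adjusted p = 0.0456), at 69.0 and 67.3 CPM in the controls, 127 CPM in mutant 51 and 85.2 CPM in mutant 54. That call was lost without mutant 51 (adjusted p = 0.0885), without control 47 (0.227) and without control 50 (0.237). The call of *Mafk* held with either control left out, and that of *Maff* without control 50 but not without control 47. The calls of *Mafg* (adjusted p = 0.129 and 0.0743) and *Nfe2l1* (adjusted p = 0.122 and 0.145) were lost without control 47 and without control 50. *Bach1* was at 50.2 and 49.1 CPM in the controls, 70.2 CPM in mutant 51 and 50.2 CPM in mutant 54, and did not pass (log2 fold change 0.25, adjusted p = 0.282).

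**Figure D5:**
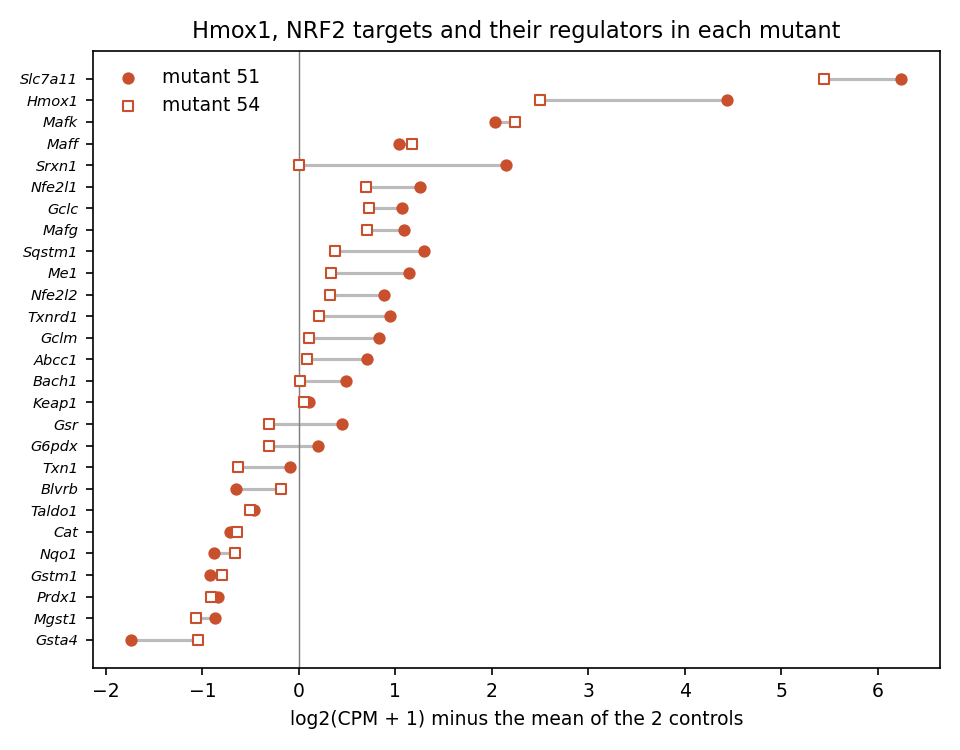
Log2(CPM + 1) of each mutant minus the mean of the 2 controls for *Hmox1*, the 19 NRF2 targets tested and 7 regulators, mutant 51 as filled circles and mutant 54 as open squares. *Srxn1* and *Hmox1* show wide gaps between the mutants and *Mafk* a narrow one.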

How the data were processed

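The authors deposited 1 table, with 4 per-library columns headed CPM per the file headers. Their unit is a read signal scaled to effective library sizes, since the deposited columns sum to between 935156 and 1034350. Tools listed in the submitters' processing notes are STAR, fastp 0.20.0, DESeq and edgeR 3.10, with the GRCm38 build. Which tool counted reads, and with what strand setting or annotation, is not given in the sources used here. Per the file headers the deposited log2 fold change, F score, p-value and FDR come from the authors' comparison; of these the text quotes the FDR of *Tfrc* alone. Groups were taken from the sample titles, since the genotype entry for embryos with Cre gives both wildtype and KO.

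Dividing each column by its smallest step gave whole reads for 100% of values (tolerance 0.001). Replicates differed by more than sampling noise (chi-square per degree of freedom 8.26 in controls and 24.6 in mutants). Because the values are not counts, log2(CPM + 1) was tested for genes reaching 1 CPM in 2 libraries or more with limma-trend (limma 3.58.1, R 4.3.3), genotype as the only term. Alternatives were other pseudocounts, filters and scalings, edgeR 4.0.16 and DESeq2 1.42.0 on recovered reads (4688 and 3674 genes called), and leaving out each library. With 1 library left in a group, it is assumed to vary like the other group. The tests were checked on simulated counts with the same spread set for both groups, unlike the real replicates. Only genes above a minimum mean CPM were scored, so recovery of genes with few reads was not checked. Limma called 83% of genes set to a log2 change of 1 and 100% of those set to 2, with 11 false calls. Smaller changes were not simulated.

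Positions are from GENCODE M21 (GRCm38), which matched 14916 gene identifiers. Hairpin sequences are GENCODE M21 transcript sequences. The iron genes and all lists (iron, heme, IRE, NRF2, ferroptosis and cell type markers) were chosen with earlier results of these data known. All members and any list gene could be named, with at least the 3 smallest p-values in each direction. Listed genes absent from the table were not analysed here. Lists are given by their counts, and many of their genes are not named. Counting intervals cover counting error only.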

Additional observations from a re-analysis of the deposited data

How the results depend on the processing

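No paired analysis was run. Embryo numbers name single animals, and the sample titles give no litter that would link a control to a mutant. With single libraries left out, the calls over all genes ranged from 571 to 5655, those among the 10 iron genes from 1 to 4, among further iron genes from 1 to 17, among heme and iron-sulfur genes from 0 to 18, among NRF2 targets from 1 to 17 and among IRE transcripts from 1 to 5. The low ends came without a control. The other 10 alternatives kept each of these counts within 1.5 times its value. The log2 fold change of *Ftl1* turned to 0.067 with quantile normalization, 0.019 with edgeR and TMM, 0.0035 with edgeR and RLE and 0.0035 with DESeq2, and ranged from -0.26 to 0.24 with libraries left out. That of *Ireb2* turned to -0.087 under upper-quartile scaling and to -0.12 after quantile normalization, and ranged from -0.057 to 0.067 with libraries left out. Neither passed the threshold in any of these. The cause was not tested. At 68 to 146 reads per library, *Slc40a1* is the member limited most by depth among those that fell.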

Other observations

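Of 15 genes listed for ferroptosis, a form of cell death driven by iron and oxidised lipids, 14 were tested, of which 5 rose and 2 fell, *Tfrc* and *Fth1*, against 17.8% up and 14.2% down of all genes tested. *Slc3a2*, the partner chain of the cystine importer, was at 38.3 and 40.8 CPM in the controls, against 518 and 420 CPM in the mutants, a log2 fold change of 3.53 (SE 0.14). *Chac1*, which degrades glutathione, rested on 3 and 2 reads in the controls, against 1249 and 962 in the mutants, a ratio of 400 with an exact counting interval from 171 to 1233. *Gch1*, the first enzyme of tetrahydrobiopterin synthesis, rose by 1.37 (SE 0.18). *Gpx4*, which reduces lipid peroxides, and *Acsl4*, which prepares the lipids, did not pass, with log2 fold changes of -0.23 (SE 0.14) and 0.11 (SE 0.13). *Slc7a11* and *Chac1* are also targets of ATF4, and gene levels alone do not measure cell death.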
